A study of Polypedilum vanderplanki with 84 samples.

Results

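The genes g16198 (PvLil11), g16199 and g16200 (PvLil2) lie in a row in ARId1, an Anhydrobiosis Related Island on the fourth chromosome of *Polypedilum vanderplanki*, and form the second of the 4 Blocks into which the ARId1 genes were divided. They were chosen by gene ID, as all rows of the expression table whose ID without the transcript suffix is 1 of these 3, which gave 3 of 18248 genes and 13 of 66333 transcripts: 2 of g16198, 1 of g16199 and 10 of g16200. The sources used here give a LIL protein name to g16198 and g16200 but none to g16199. The paper drew the Blocks from gene regulation in these same libraries, and names mannitol, NaCl and trehalose preconditioning only as examples. The calls it displays for ARId1 also cover drying and rehydration. A call of a member in any of these comparisons is therefore not independent evidence.

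Larvae of *P. vanderplanki*, the sleeping chironomid, survive almost complete loss of water, a state named anhydrobiosis. Trehalose, a sugar that replaces water and vitrifies in the dry cell, is one known protectant, and LEA (late embryogenesis abundant) proteins are another. The ARIds are clusters of duplicated genes for such protectants. LIL (Lea-island-located) proteins are encoded among the *Lea* genes of ARId1 and are predicted to cross membranes. The paper lists their family among those specific to *Polypedilum*.

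RNA of Pv11 cells, a cultured line of *P. vanderplanki* that tolerates drying after preconditioning with trehalose, was measured in 84 libraries of 28 groups, with 3 replicates in each group. In the stress experiment (54 libraries), untreated Control cells were sampled beside cells given trehalose or mannitol (each at 600 mM), NaCl (0.5% by the labels, while the text of the main methods gives another figure), paraquat (20 µM, labelled ROS) or a heat shock (42°C for 15 min), all at 1, 3 and 24 h. The time course (30 libraries) came from an earlier data set of the same laboratory. Its cells were sampled at 0, 12, 24, 36 and 48 h in 600 mM trehalose (PreCondTre). They were then dried and, by the protocol given, kept dry for days. Samples labelled Rehydration 0, 3, 12, 24 and 72 h were taken after serum-containing IPL-41 medium was added. The methods name an incubation of 1 h in this medium and do not say whether 0 h lies before or after it. Days in the dry state and the change from trehalose solution to medium go with these steps and cannot be told apart from them. Stressed cells were kept in IPL-41 medium, whereas PreCondTre cells were in a trehalose solution that held only a small part of serum-containing IPL-41 medium, so the trehalose groups of the experiments did not share a medium. All groups came from 1 cell line. The labels of neither experiment speak of separate cultures. The study's methods give 3 biological replicates for the stress samples but take the time course from earlier data. The p-values of the time course therefore measure the spread between libraries, which may be technical.

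Values are TPM, the length-corrected share of a transcript in a library scaled to the same total in every library, and gene values are sums over transcripts. Changes are differences of mean log2(TPM + 1), which understate the change of genes below a few TPM, with the standard error (SE) of a limma fit. A gene was called where its adjusted p, over 9450 genes with a mean TPM above 1, was under 0.05 and its fold change above 2. Read counts were not used here, so depth is unknown, and between 24889 and 29846 transcripts per library were listed above 0. Dividing each library by its median ratio over all genes used factors between 0.585 and 1.69, and results that this changes are named beside them. In RNA of whole cultures, fewer cells that carry a transcript and less of it in each cell cannot be told apart.

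All 3 members were near the bottom of the range in Control, heat-shocked and paraquat-treated cells and highest at the first time point after drying. Over the 27 Control, Heat and Paraquat libraries, g16198 had a median of 1.45 TPM (0.43 to 4.69), g16200 one of 1.16 TPM (0.50 to 2.82) and g16199 one of 0.16 TPM (highest 0.58, with 3 libraries listed at 0). At Rehydration 0 h their means were 84.1 ± 13.0, 411 ± 68.4 and 82.4 ± 14.1 TPM (SD, n = 3), which is the top rank among the 28 groups for each of the 3 genes. By library, g16199 alone was apart from its next group, while g16198 overlapped PreCondTre 12 h and g16200 overlapped Rehydration 3 h. Set against PreCondTre 0 h, the ratio of these means was 30.1 for g16198, 124 for g16200 and 225 for g16199. Since both ends come from the same 1 time course, these ratios describe it and were not tested on their own.

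Before preconditioning, g16198 was at 3.49, 2.22 and 2.66 TPM in the 3 PreCondTre 0 h libraries, and after 12 h in trehalose at 76.9, 95.3 and 48.4 TPM. The corresponding values of g16200 were 4.60, 2.9 and 2.41 TPM and then 59.3, 63.7 and 34.1 TPM. The gene g16199 went from 0.43, 0.41 and 0.26 TPM to 3.01, 5.01 and 3.79 TPM. For each gene the lowest library at 12 h lay above the highest at 0 h, and all 3 rose, by 4.26 (SE 0.23, limma adjusted p = 1.9e-13), 3.61 (SE 0.30, adjusted p = 3.1e-10) and 1.84 (SE 0.25, adjusted p = 1.3e-06) on the log2 scale. In this comparison 6.24% of all genes were called up. Of the other ARId1 genes, 32 of 36 tested were called up, with a median of 2.11 against -0.06 over all genes.

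From 12 h on the 3 genes went separate ways. At 24 h g16198 had fallen to 35.7, 27.2 and 20.1 TPM, a drop by 1.36 (SE 0.23, adjusted p = 1.3e-04, 5.40% of genes called down), and it then stayed at means of 27.7, 26.9 and 27.8 TPM to 48 h. The gene g16199 instead went up at each step, from a mean of 3.94 TPM at 12 h to 7.11, 15.0 and 22.9 TPM at 24, 36 and 48 h. Of its steps only that from 24 to 36 h was called (1.04, SE 0.25, adjusted p = 0.0095, 0.148% of genes called up). That call was at the edge of the fold threshold: after median ratio scaling the value was 0.92 (adjusted p = 0.018), and leaving out PreCondTre 24 h replicate 2 or 3 or PreCondTre 36 h replicate 1 ended it, with values of 0.95, 0.85 and 0.96.

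The gene g16200 held at 52.4 ± 16.0 and 54.2 ± 7.75 TPM at 12 and 24 h and was at 84.1, 65.0 and 141 TPM at 36 h and 164, 204 and 180 TPM at 48 h. The 36 h and 48 h libraries did not overlap, but the change between them, 0.98 (SE 0.30, adjusted p = 0.018, 4.24% of genes called up), stayed just under the fold threshold. After median ratio scaling it was 0.63 (adjusted p = 0.093), and the genes called up went from 401 to 88. PreCondTre 36 h replicate 3 was the highest of its group, and without it the change was 1.29 (adjusted p = 0.0012). Over the whole of preconditioning, 48 h against 0 h, the rises were 2.93 for g16198, 4.11 for g16199 and 5.44 for g16200 (adjusted p = 1.3e-10, 1.0e-12 and 1.4e-13), in a comparison with 11.9% of genes called up. The 48 h level of g16198 was thus the smallest rise of the 3, though at 12 h it had been the largest.

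All 3 members rose again in TPM across drying. TPM is a share of the RNA in each library, so this does not show more copies per cell. In the last libraries before drying g16198 was at 23.3, 32.3 and 27.8 TPM, and in the first after it at 78.7, 74.6 and 98.9 TPM. The gene g16199 was at 17.5, 28.2 and 23.2 TPM and then at 67.6, 83.96 and 95.6 TPM. For g16200 the values were 164, 204 and 180 TPM and then 334, 432 and 466 TPM. In none of the 3 genes did the 2 groups overlap, and the means rose 3.03-fold, 3.59-fold and 2.25-fold.

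**Figure D1:**
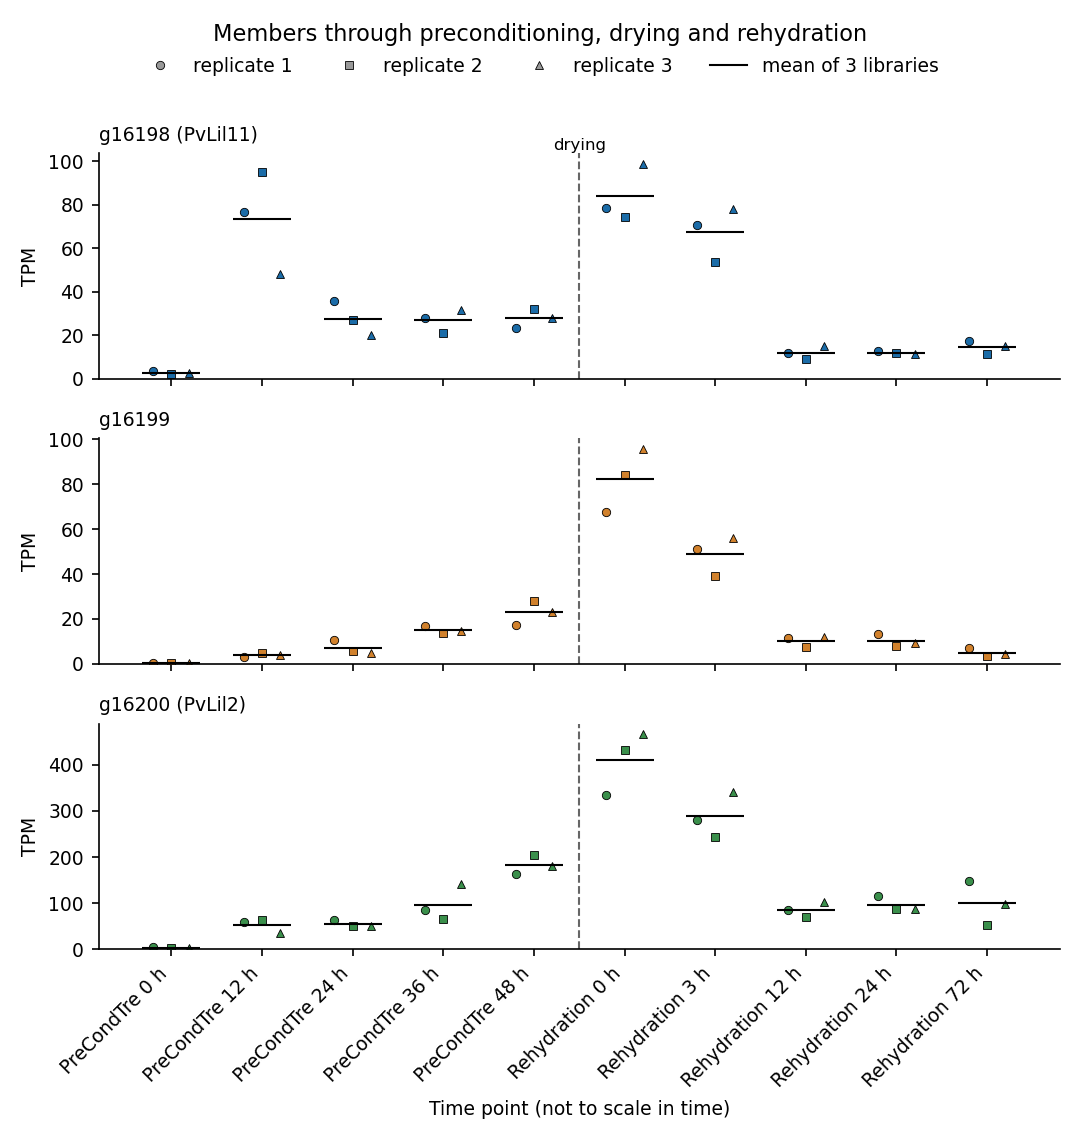
TPM (vertical axis, linear, its own range for each gene) of the 3 members in each of the 30 time-course libraries, by time point in order of sampling. Symbols are replicates, bars are means of 3 libraries and the dashed line marks drying. All 3 genes have their highest mean at Rehydration 0 h, and only g16198 also stands high at PreCondTre 12 h, where its libraries overlap.

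On the log2 scale these rises were 1.56 (SE 0.23, adjusted p = 8.1e-06) for g16198, 1.81 (SE 0.25, adjusted p = 2.8e-06) for g16199 and 1.16 (SE 0.30, adjusted p = 0.0027) for g16200. Between PreCondTre 48 h and Rehydration 0 h, 3.87% of all genes were called up and 4.36% down. The calls of the 3 members held when any 1 of the 6 libraries was left out, with values from 1.06 to 1.30 for g16200, the smallest of them. After median ratio scaling the rises were 1.67, 1.92 and 1.27, while over all genes 471 calls were up and 273 down, where they had been 366 and 412.

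The other genes of ARId1 gave a different picture at this step. Of 36 tested, 0 were called up and 3 down, and their median change was -0.19, beside -0.07 over all genes. The neighbour g16197, which lies next to g16198 and belongs to the first Block, had a value of 0.87 (adjusted p = 0.0064), under the fold threshold. PvLea17 (g16201), the LEA gene on the other side of the Block, was at -0.07 (adjusted p = 0.72). PvLil6 (g16168), the LIL gene at the opposite end of ARId1, had 0.78 (adjusted p = 9.8e-04), and the LEA genes PvLea4 (g16204) and PvLea5 (g16205) had -0.15 and 0.29. Whether the members differ in this step from the rest of the island was not tested. Their part of the TPM of ARId1, summed over the same ID range, went from 0.0124% at PreCondTre 0 h to 0.290% at 48 h and 0.761% at Rehydration 0 h. Even at their highest they were thus a small part of the RNA of these genes.

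**Figure D2:**
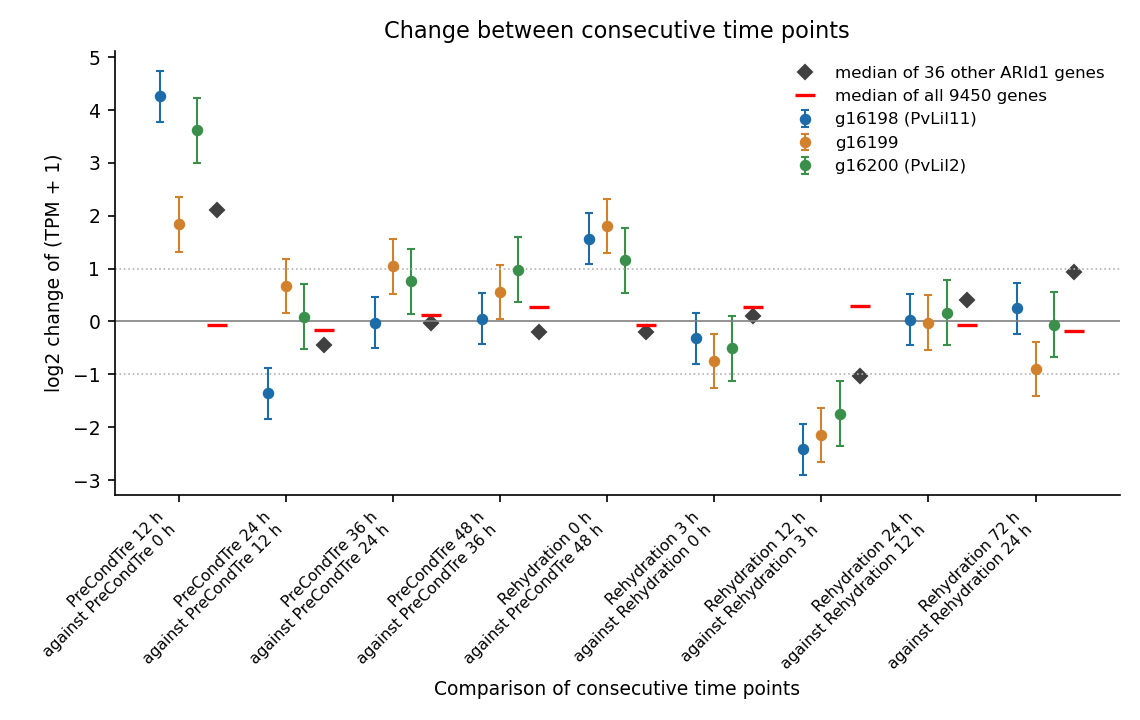
Change of each member between consecutive time points (log2 of TPM + 1, vertical axis), with 95% confidence intervals from limma; diamonds are medians of the 36 other ARId1 genes and red bars medians of all 9450 genes tested. Dotted lines mark a 2-fold change; at Rehydration 0 h the members lie between 1.16 and 1.81 while the other ARId1 genes have a median of -0.19.

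Between Rehydration 0 h and 3 h no member was called. At Rehydration 3 h g16198 was at 70.7, 53.9 and 77.9 TPM and g16200 at 281, 243 and 342 TPM, and the ranges of both genes overlapped those of 0 h. Their changes were -0.32 (95% confidence interval -0.80 to 0.16, adjusted p = 0.28) and -0.51 (-1.12 to 0.11, adjusted p = 0.17), and after median ratio scaling -0.67 (adjusted p = 0.0087) and -0.86 (adjusted p = 0.010), both still under the fold threshold. The values of g16199, 51.3, 39.1 and 56.3 TPM, all lay below those of 0 h. Its change of -0.74 (SE 0.25, adjusted p = 0.017) was under the fold threshold, and became a call after median ratio scaling (-1.09, adjusted p = 8.4e-04), which removes a shift of 0.27 in the median of all genes. In this comparison 0.614% of genes were called down.

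All 3 members then fell together. At Rehydration 12 h g16198 was at 11.6, 8.96 and 15.2 TPM, g16199 at 11.6, 7.38 and 12.0 TPM and g16200 at 84.3, 70.7 and 102 TPM, with no overlap with the 3 h libraries. The drops were by 2.42 (SE 0.23, adjusted p = 6.8e-09), 2.15 (SE 0.25, adjusted p = 1.2e-07) and 1.74 (SE 0.30, adjusted p = 2.8e-05). Only 2.42% of all genes were called down at this step, but 20 of the 36 other ARId1 genes were, with 1 up and a median of -1.04 beside 0.29 over all genes. Among them were g16197 (-1.64), PvLea17 (-1.78), PvLea5 (-1.02) and PvLea11 (-1.05, the last gene of ARId1). At this step 20 of the 36 others were thus called in the same direction as the members, whereas across drying 0 of 36 were, although g16197 and PvLil6 had positive values there under the fold threshold.

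From 12 to 72 h no member was called, while 1.14% of all genes were called up and 0.677% down at 24 h and 2.01% up and 3.77% down at 72 h. The gene g16198 was at 13.0, 11.7 and 11.3 TPM at 24 h and 17.2, 11.6 and 15.2 TPM at 72 h, and g16200 at 114, 86.5 and 87.7 TPM and then 148, 53.1 and 97.4 TPM. The 72 h libraries of g16200 ranged from 53.1 to 148 TPM. The gene g16199 went from 13.1, 8.08 and 9.28 TPM to 7.03, 3.67 and 4.43 TPM, a change of -0.90 (SE 0.25, adjusted p = 0.0065) under the fold threshold, which passed it without Rehydration 24 h replicate 2 (-1.03) or without Rehydration 72 h replicate 1 (-1.12). In the same step 11 of the 36 other ARId1 genes were called up, among them PvLil6 by 2.06, with a median of 0.93.

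At 72 h after rehydration the members had not returned to their level before preconditioning. Rehydration 72 h exceeded PreCondTre 0 h by 2.04 for g16198, 2.11 for g16199 and 4.46 for g16200 (adjusted p = 5.3e-08, 8.6e-08 and 3.6e-12), with no overlap of the libraries, which in mean TPM is 5.24-fold, 13.8-fold and 30.1-fold. Background was high here, since 22.3% of all genes were called up and 3.37% down. Median ratio scaling turned this into 735 genes up and 753 down, and the 3 members remained called. Of the other ARId1 genes 21 of 36 were called up, with a median of 1.81. PvLea4 (0.02) and PvLea11 (0.09) lay close to their starting level, in contrast to PvLil6 (3.61) and PvLea17 (2.28).

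The transcripts of the members followed the sums in most cases. For g16198, the transcript t1 held 85.9% and t2 14.1% of the gene's TPM over all libraries. Both rose at Rehydration 0 h (1.52 and 1.41, adjusted p = 3.3e-04 and 0.0065 over 22728 transcripts). The main transcript of g16200, t1, held 78.6% of its TPM and rose by 1.05 (adjusted p = 0.034). In this comparison 6.26% of all transcripts were called up and 6.16% down.

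The minor transcripts g16200.t10 and g16200.t11, picked out after their values had been seen, exchanged places at drying. Transcript t10 was at 18.3, 13.6 and 17.98 TPM in the PreCondTre 48 h libraries and listed at 0 in all 3 libraries of Rehydration 0 h. Transcript t11 was at 0, 5.17 and 0 TPM and then at 38.7, 61.3 and 87.9 TPM. Over the whole time course t10 was above 0 in 12 of 15 PreCondTre libraries and in 1 of 15 Rehydration libraries (0.07 TPM), and t11 in 4 of 15 PreCondTre libraries (highest 6.04 TPM) and in 15 of 15 Rehydration libraries (3.13 to 87.9 TPM). At Rehydration 0 h against PreCondTre 48 h t10 was called down (adjusted p = 8.2e-10) and t11 up (adjusted p = 2.9e-05). At 72 h t11 was still at a mean of 11.02 TPM. RSEM divides reads that fit several transcripts of a gene between them, so a value of a single isoform is less certain than the sum, and whether the exchange lies in the RNA or in this division was not tested.

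**Figure D3:**
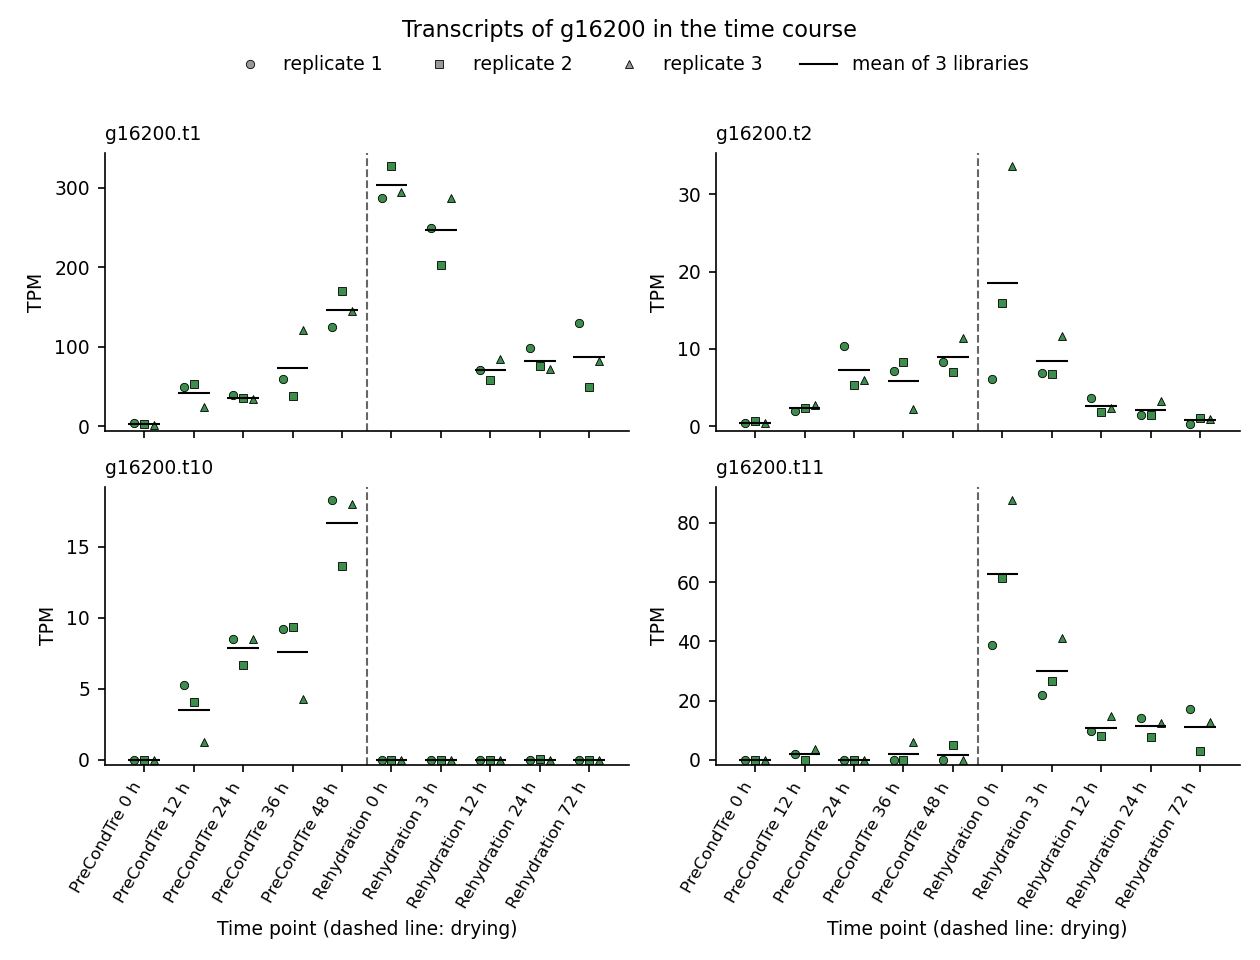
TPM (vertical axis, linear, its own range for each panel) of 4 transcripts of g16200 in the 30 time-course libraries, with symbols for replicates and bars for means of 3. Transcript t10 reaches a mean of 16.6 TPM before drying and is above 0 in 1 of 15 Rehydration libraries (0.07 TPM), whereas t11 reaches a mean of 62.6 TPM at Rehydration 0 h.

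In the stress experiment all calls of the members were under mannitol, NaCl or trehalose, and none was in the 6 heat and paraquat comparisons. There 1.15%, 0.19% and 1.7% of all genes were called up at 1, 3 and 24 h after heat and 0%, 0% and 2.84% under paraquat. After median ratio scaling the genes called up at 24 h went from 161 to 47 for heat and from 268 to 0 for paraquat. The changes of the 3 genes there ranged from -0.69 to 0.51, and the 95% confidence interval of g16200 after 24 h of paraquat was -0.20 to 1.03. At 0.58 TPM or less, g16199 could not pass the fold threshold on log2(TPM + 1), so its missing calls cannot show whether it changed. Its mean TPM was 2.10, 0.727 and 2.62 times that of Control at 1, 3 and 24 h after heat. Under paraquat the ratios were 1.94, 0.614 and 3.54. For the osmolytes, counted over each gene under each of the 3 osmolytes, there were 0 calls at 1 h, 3 at 3 h and 8 at 24 h. Those at 3 h were g16198 under trehalose and g16200 under mannitol and trehalose, and g16199 had none. The nearest at 1 h was g16198 under trehalose with 0.79 (adjusted p = 0.032), under the fold threshold and above it (1.01) without Trehalose 1 h replicate 1. At 1 h the shares of all genes called up were 0.434% under mannitol, 1.74% under NaCl and 0.677% under trehalose. In the same order they were 4.59%, 2.85% and 2.37% at 3 h and 8.46%, 7.75% and 6.99% at 24 h.

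After 3 h of trehalose g16198 was at 8.09, 8.61 and 12.6 TPM, against 1.29, 4.69 and 1.62 TPM in Control 3 h, and rose by 1.71 (SE 0.29, adjusted p = 3.0e-06). The gene g16200 rose as well, by 1.29 (SE 0.30, adjusted p = 2.9e-04), from 0.53, 2.82 and 1.00 TPM to 3.88, 3.99 and 6.03 TPM. These groups did not overlap. Under mannitol g16200 rose by 1.56 (adjusted p = 2.5e-05), to 8.21, 5.90 and 3.70 TPM. Control 3 h replicate 2 was the highest control of this time in all 3 genes.

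At 3 h the scaling between libraries mattered, since the median of all genes stood at -0.43 under mannitol, -0.75 under NaCl and -0.62 under trehalose. In these 3 comparisons 4.59%, 2.85% and 2.37% of all genes were called up and 20.6%, 37.1% and 27.8% down, and after median ratio scaling 951, 1145 and 837 were up and 645, 1150 and 733 down. The change of g16198 under mannitol went from 0.80 (adjusted p = 0.016) to 1.19 with that scaling and became a call, as did that of g16200 under NaCl, from 0.77 (adjusted p = 0.022) to 1.41. Both also passed the threshold without Control 3 h replicate 2. Under NaCl g16198 was at 0.74, 1.11 and 1.33 TPM, with a change of -0.67 (adjusted p = 0.041) that was not called and became -0.13 (adjusted p = 0.65) after that scaling. PvLea17, the LEA gene next to the Block, rose by 2.01 here, and 20 of the 36 other ARId1 genes were called up.

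**Figure D4:**
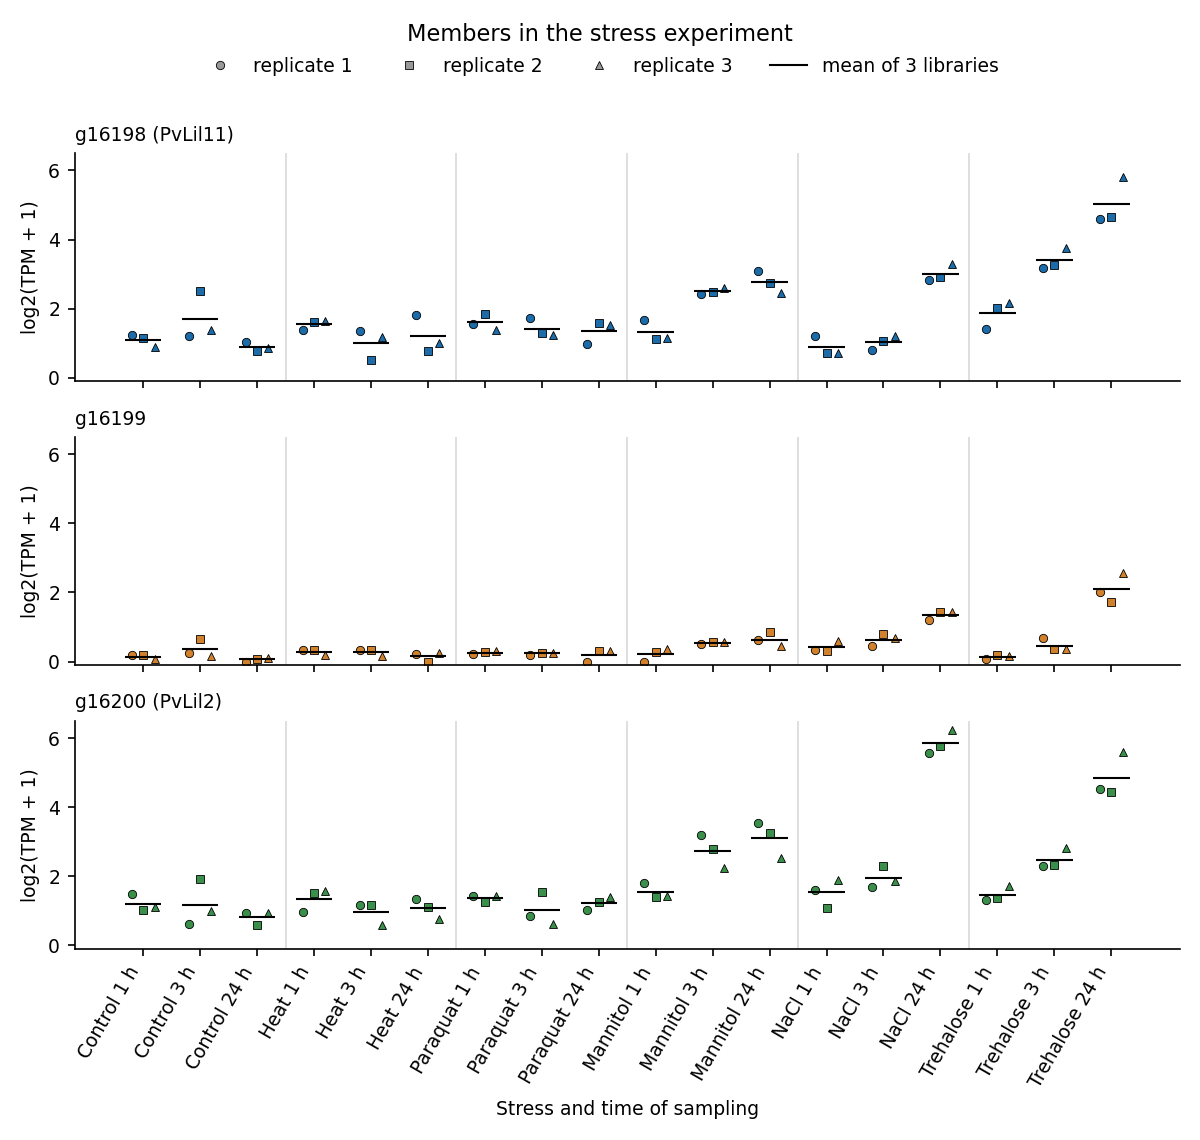
Level of the 3 members (log2 of TPM + 1, vertical axis, same range in each panel) in the 54 libraries of the stress experiment, by stress and time of sampling, with symbols for replicates and bars for means of 3. Levels above those of Control at 24 h are seen for mannitol, NaCl and trehalose, with g16200 highest under NaCl and g16198 and g16199 highest under trehalose.

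At 24 h the order of the osmolytes differed between the genes. In Control 24 h g16198 was at 1.05, 0.71 and 0.81 TPM, g16199 at 0, 0.06 and 0.07 TPM and g16200 at 0.90, 0.50 and 0.92 TPM. Under trehalose they were at 23.1, 24.0 and 55.7 TPM, at 3.07, 2.32 and 4.94 TPM and at 22.1, 20.6 and 47.2 TPM. The rises were 4.13, 2.05 and 4.03 (adjusted p = 1.7e-15, 1.5e-15 and 1.0e-14, 6.99% of genes called up). Trehalose 24 h replicate 3 was the highest library in all 3 genes, and without it the rises were 3.73, 1.82 and 3.66.

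Under NaCl for 24 h g16198 reached 6.09, 6.60 and 8.71 TPM, g16199 1.30, 1.69 and 1.72 TPM and g16200 46.8, 53.5 and 73.8 TPM. All 3 were called (2.12, 1.30 and 5.04, adjusted p = 5.4e-08, 3.9e-10 and 1.2e-17, 7.75% of genes called up). Mannitol gave the lowest mean of the 3 osmolytes in each gene, though the libraries of g16198 overlapped those of NaCl. Under mannitol g16198 was at 7.50, 5.69 and 4.45 TPM, g16199 at 0.54, 0.80 and 0.36 TPM and g16200 at 10.6, 8.61 and 4.78 TPM. The rises of g16198 (1.87, adjusted p = 1.1e-06) and g16200 (2.29, adjusted p = 3.6e-08) were called, in a comparison with 8.46% of genes up, and that of g16199 (0.58, adjusted p = 9.9e-04) stayed under the fold threshold. Its mean was 13.1-fold that of Control 24 h, at levels below 1 TPM, and it passed the threshold with a pseudocount of 0.1 in place of 1. Of the 36 other ARId1 genes, 30 were called up under trehalose, 31 under NaCl and 21 under mannitol, with medians of 2.43, 2.98 and 1.26 beside medians over all genes of -0.13, -0.17 and -0.01.

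The response at 24 h exceeded that at 3 h, tested as an interaction, in 3 of 3 members under NaCl (24.7% of all genes called up in this contrast), 3 of 3 under trehalose (14.6%) and g16198 alone under mannitol (10.7%), where that call did not hold after median ratio scaling. With that scaling the genes called up in these contrasts went from 2330 to 539, from 1378 to 391 and from 1012 to 198. For g16200 this difference was 4.27 under NaCl and 2.74 under trehalose.

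The osmolytes were also compared directly, in 3 pairs at 3 h and 3 at 24 h. Mannitol and trehalose were given at the same molarity, whereas NaCl was given by weight, so NaCl is not matched in dose. At 24 h trehalose gave more than mannitol in all 3 genes, by 2.26 for g16198, 1.47 for g16199 and 1.74 for g16200 (adjusted p = 7.5e-08, 1.3e-10 and 1.8e-05), in a comparison with 1.27% of genes called up. Mannitol is an open-chain sugar alcohol and trehalose a disaccharide. At 3 h, with 0.106% of genes called up, no member was called between them. The nearest was g16198 at 0.90 (95% confidence interval 0.31 to 1.496, adjusted p = 0.030), which passed the threshold after median ratio scaling (1.10) and without Trehalose 3 h replicate 1 (1.01).

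Trehalose and NaCl ranked g16198 and g16200 in opposite order at 24 h. The level of g16198 was higher under trehalose by 2.01 (SE 0.29, adjusted p = 2.2e-07, 8.78% of genes called up). That of g16200 was lower by 1.01 (SE 0.30, adjusted p = 0.0050, 8.34% of genes called down), although Trehalose 24 h replicate 3 (47.2 TPM) overlapped the lowest NaCl library. This second difference was close to the fold threshold, and the call ended without NaCl 24 h replicate 3 (-0.82), without Trehalose 24 h replicate 1 (-0.84) or without Trehalose 24 h replicate 2 (-0.80). The difference of g16199, 0.75 (adjusted p = 2.9e-05), was under the fold threshold.

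Between NaCl and mannitol at 24 h g16200 was higher under NaCl by 2.75 (adjusted p = 4.7e-10, 4.62% of genes called up), whereas g16198 had a difference of 0.25 (95% confidence interval -0.34 to 0.85, adjusted p = 0.52) and g16199 one of 0.72 (adjusted p = 5.9e-05) under the fold threshold. At 3 h g16198 was higher under trehalose than under NaCl by 2.37 (adjusted p = 7.9e-09, 9.19% of genes called up) and lower under NaCl than under mannitol (-1.47, adjusted p = 6.3e-05, 14% of genes called down).

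The ratio of the 2 named LIL genes within a library, which no scaling between libraries can change, was examined after these values had been seen. TPM is corrected for length, so the levels can be set against each other. Per library, g16200 was 7.69, 8.10 and 8.47 times g16198 at NaCl 24 h, from the lowest to the highest, but 0.848, 0.860 and 0.956 times at Trehalose 24 h and 1.07, 1.41 and 1.51 times at Mannitol 24 h. In the time course the ratio was between 0.668 and 0.772 at PreCondTre 12 h and between 6.33 and 7.02 at 48 h. It was between 4.25 and 5.79 at Rehydration 0 h and between 3.97 and 4.52 at 3 h. The NaCl and trehalose libraries were apart, as were those of PreCondTre 12 h and 48 h. The differences in mean log2 ratio were 3.19 between NaCl 24 h and Trehalose 24 h, 2.61 between NaCl 24 h and Mannitol 24 h, 3.21 between PreCondTre 48 h and 12 h, -0.44 between Rehydration 0 h and PreCondTre 48 h and 0.56 between Rehydration 72 h and 3 h. In each of these 5 comparisons the two-sided exact permutation test gave p = 0.1 (adjusted p = 0.1), the smallest that 3 against 3 libraries allow. The pairs were picked after their values were seen and their libraries lay apart. The tests could thus give no other result and add no evidence.

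**Figure D5:**
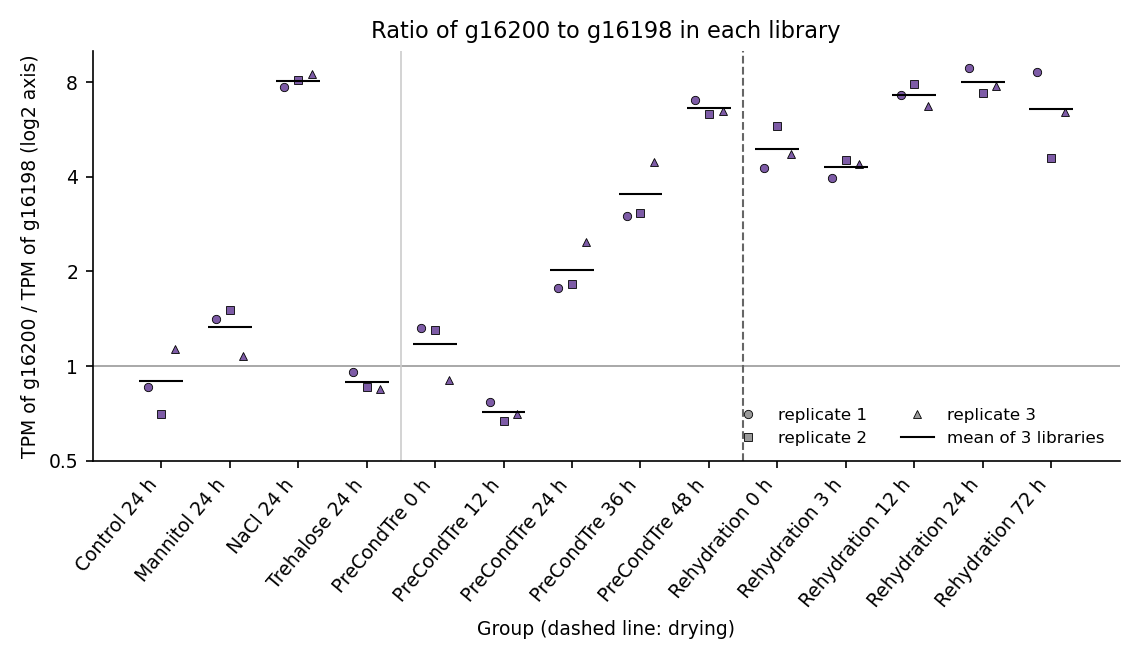
Ratio of the TPM of g16200 to that of g16198 in single libraries (vertical axis, log2 scale), with symbols for replicates and bars for means of 3 ratios. Shown are Control, mannitol, NaCl and trehalose at 24 h and the time course. The ratio is between 7.69 and 8.47 under NaCl but below 1 under trehalose at 24 h, and is between 6.33 and 7.02 at the end of preconditioning.

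Over all 28 groups, ranked by mean TPM, most neighbours in the order overlapped. Of 27 neighbouring pairs the library ranges were apart in 2 for g16198, 6 for g16199 and 3 for g16200. In g16198 Rehydration 0 h (84.1 TPM), PreCondTre 12 h (73.5 ± 23.7 TPM), Rehydration 3 h (67.5 ± 12.3 TPM) and Trehalose 24 h (34.3 ± 18.6 TPM) led and were not separated step by step. In g16199 the first 4, Rehydration 0 h, Rehydration 3 h (48.9 ± 8.83 TPM), PreCondTre 48 h (22.9 ± 5.36 TPM) and PreCondTre 36 h (15.0 ± 1.70 TPM), were each apart from the next. In g16200 Rehydration 0 h and 3 h overlapped and were followed, apart from both, by PreCondTre 48 h (183 ± 20.2 TPM).

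Over the 28 group means of log2(TPM + 1), Pearson correlations were 0.88 between g16198 and g16199, 0.91 between g16198 and g16200 and 0.95 between g16199 and g16200. These points share libraries and treatments, so the values are descriptions. Many other genes were as much alike. By likeness to g16198, g16200 ranked 30 and g16199 ranked 87. For g16199, g16200 ranked 6 and g16198 ranked 101, and for g16200, g16199 ranked 7 and g16198 ranked 34. Among 9449 genes, the gene most like g16198 was its direct neighbour g16197 (0.98), followed by g450 (0.97), g7271 (0.97), g5401 (0.97) and g17258 (0.96). For g16199 they were g13133 (0.97), g4405 (0.96), g8295 (0.95), g17485 (0.95) and g5752 (0.95), and for g16200 g17483 (0.97), g17500 (0.97), g17482 (0.96), g15789 (0.95) and g17485 (0.95). Only g16197 of these lies in ARId1, and g17485 is in the lists of both g16199 and g16200. The lists depended on the measure: with Spearman correlations 2, 0 and 0 of the 5 genes were shared with these lists for g16198, g16199 and g16200, and over the 10 time-course groups alone 1, 2 and 0.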

How the data were processed

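The authors mapped reads to the coding sequences of their gene set with Bowtie2, quantified them with RSEM through a Trinity utility and deposited 1 table of TPM per transcript, rounded to 2 decimals. The counts that the authors tested were not used here, so no count model was run. All 84 columns were matched to a sample by name. Transcripts were summed per gene, and log2(TPM + 1) of the 54 stress and 30 time-course libraries was fitted separately with limma 3.58.1 (variance trend, empirical Bayes, Benjamini-Hochberg adjustment) in R 4.3.3, with 1 coefficient per group. Comparisons were 15 with Control of the same time, 9 of consecutive time points, 6 between osmolytes, 2 with PreCondTre 0 h and 3 of the 24 h response with the 3 h response. The fit was tested on simulated data. Ratios were tested with scipy 1.17.1.

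Named were the members, the genes at the borders of the ARId1 Blocks, the 5 genes most correlated with each member and transcripts with at least 10% of a member's TPM; g16200.t2, t10 and t11, below that share, were plotted or named after their values had been seen. The members and lists were chosen with earlier results of these data known. Gene positions and sequences were not used here. Alternatives were median ratio scaling over 9254 genes above 0 in every library, a pseudocount of 0.1, no filter, no trend, only the groups compared, a replicate block, a strict threshold (adjusted p under 0.001, fold change above 4), and each replicate or library left out.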

Additional observations from a re-analysis of the deposited data

Results flagged for a closer look

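The response of the members to an osmolyte differed between 24 h and 3 h by an interaction contrast in 7 of 9 cases. In each the change against Control was higher at 24 h than at 3 h. Not every case rose at both times, since g16198 under NaCl had a change of -0.67 at 3 h. Under NaCl the difference was 2.79 for g16198 (limma adjusted p = 1.1e-06), 1.02 for g16199 (adjusted p = 9.5e-05) and 4.27 for g16200 (adjusted p = 5.3e-10) on the log2 scale, in a contrast with 24.7% of all genes called up. Under trehalose it was 2.43 (adjusted p = 9.9e-06), 1.94 (adjusted p = 8.1e-10) and 2.74 (adjusted p = 2.4e-06), with 14.6% called up. Under mannitol only g16198 passed, with 1.07 (adjusted p = 0.037, 10.7% called up), and g16199 (0.39, adjusted p = 0.12) and g16200 (0.73, adjusted p = 0.17) did not. The median over all genes was 0.63, 0.48 and 0.44 in these 3 contrasts, and of the 36 other ARId1 genes 23, 31 and 8 were called up.

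After median ratio scaling the value of g16198 under mannitol was 0.78 (adjusted p = 0.087), and it also lost its call without Control 3 h replicate 2 (0.66, adjusted p = 0.23). The value of g16199 under NaCl lost its call without that library (0.86), by the fold threshold.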

How the results depend on the processing

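Of 43 member values that were called, 39 lost their call under no alternative other than the strict threshold, and 24 under none. The others were g16198 in the mannitol contrast of 24 h with 3 h (without filter adjusted p = 0.066, with only the groups compared 0.098), g16199 in the NaCl contrast, g16199 at PreCondTre 36 h (with only the groups compared adjusted p = 0.14) and g16200 between trehalose and NaCl at 24 h. No called value changed sign. Values not called were checked only where they had been chosen for printing, and of these 19, 10 stayed so throughout. With a pseudocount of 0.1, 6 of these 19 values passed the threshold, among them g16199 under mannitol at 24 h. The difference of g16198 between NaCl and mannitol at 24 h, not called, ranged from -0.039 to 0.51 when 1 replicate number was left out.

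With the strict threshold the calls went from 11 to 6 in the stress comparisons, from 11 to 4 in the time course, from 8 to 4 between osmolytes, from 7 to 4 in the contrasts of 24 h with 3 h and from 39 to 16 among transcripts. As gene sums, the 39 transcript calls were 22. Leaving out 1 replicate number at a time gave 11 to 13, 10 to 11, 7 to 8, 5 to 7 and 29 to 34 calls in the same order, and 6 of 6 against PreCondTre 0 h. Same-numbered libraries deviated together in 2 of 24 comparisons (correlations -0.736 to 0.411), so the numbers were not taken as pairs. With a replicate block the counts were 11, 11, 8, 7 and 38, and 6 against PreCondTre 0 h. The unknown depth limits what can be said of g16199 below 1 TPM.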
